A study of Mus musculus with 12 samples.

Results

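Calpains and the muscle ubiquitin ligases were examined in the heart of mdx mice, which lack dystrophin because of a mutation in the Dmd gene. The set was listed by gene name, with earlier results of these data known, as 7 genes of calcium-driven proteolysis and atrophy, namely Capn1, Capn2, Capn3, Capns1, Cast, Fbxo32 and Trim63. Of these 7 genes, 6 had a probe set annotated to that gene alone, with 9 probe sets between them out of 22690 on the array. Capn1, Cast and Fbxo32 had 2 probe sets each and the remaining 3 had 1 each. No probe set was annotated to Trim63, so its level was not analysed here. Total RNA of cardiac muscle had been measured on 12 Affymetrix arrays, 3 each of mdx hearts at 8 weeks, control hearts at 8 weeks, mdx hearts at 10.5 months and control hearts at 10.5 months. The series title calls the control animals wild type. The labels give no background strain, sex or number of animals per array, and nothing says that the 3 arrays of a group came from separate animals. The p-values therefore measure only the spread between arrays, which may be technical. In whole heart, fewer cells of a type and less RNA per cell cannot be told apart.

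Calpains are cysteine proteases of the cytosol that are switched on by calcium and cut their substrates at a few places rather than degrading them. Calpain 1 and calpain 2, the products of Capn1 and Capn2, are the ubiquitous forms, and each pairs with the small regulatory subunit encoded by Capns1. Cast encodes calpastatin, the inhibitor of these heterodimers. Calpain 3, from Capn3, works without the small subunit, binds titin and is most abundant in skeletal muscle. Fbxo32 and Trim63 encode atrogin-1 and MuRF1, ubiquitin ligases that mark muscle proteins for the proteasome and whose transcripts climb in wasting muscle. Muscle that lacks dystrophin takes up excess calcium, and calpain activity has long been studied in it for this reason.

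The upstream sequences of Capn1 and Capn2 are shown because these genes encode the paired ubiquitous proteases and Capn1 was the only member to pass the test below. Each is the 250 bases before the annotated transcription start in RefSeq (GRCm38.p6), written 5′ to 3′ along the gene, which in both cases is the minus strand. For Capn1 it is the outer of its 2 annotated starts, at chr19:6015826-6016075, and for Capn2 it is chr1:182517611-182517860. Capitals mark matches on either strand to GGGCGG (the GC box) or CCAAT (the CCAAT box).
Capn1: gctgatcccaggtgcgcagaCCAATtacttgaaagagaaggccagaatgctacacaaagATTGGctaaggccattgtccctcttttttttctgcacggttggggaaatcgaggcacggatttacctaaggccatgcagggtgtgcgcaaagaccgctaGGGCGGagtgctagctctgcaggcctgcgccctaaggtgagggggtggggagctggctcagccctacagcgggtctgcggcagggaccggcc
Capn2: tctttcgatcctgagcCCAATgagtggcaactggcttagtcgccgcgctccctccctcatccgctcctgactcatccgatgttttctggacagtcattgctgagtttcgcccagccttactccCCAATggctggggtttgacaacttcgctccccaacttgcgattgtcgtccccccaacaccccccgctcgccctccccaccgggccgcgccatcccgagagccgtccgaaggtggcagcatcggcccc
The Capn1 sequence held 1 GC box and 2 CCAAT boxes, against no GC box and 2 CCAAT boxes in that of Capn2. Of 32851 RefSeq upstream windows of this length, 32.7% held a GC box and 33.8% a CCAAT box, so neither match is rare. Neither sequence matched TATAAA (found in 12.4% of windows) or the FOXO motif TGTTTAC (3.2%), and no match overlapped a match to another of the 4 motifs. The table matched 6 of the 7 genes. Among them the Trim63 window held 1 match each to TATAAA and TGTTTAC, and Fbxo32 had no entry. A match describes the letters only.

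All values below are scaled signals, which are the deposited intensities with every array set to a trimmed mean of 500, and differences are on the scale log2(scaled signal + 32). The added 32 makes a difference understate the change of dim genes. Dmd separated the genotypes in the labelled direction, with 159 to 286 on the 6 mdx arrays against 607 to 839 on the 6 control arrays. The tissue matched its label, since the 8 ventricular myocyte markers summed to at least 121704 on every array. Of 10 skeletal fibre markers, 9 had a mean signal of at most 80.3, and the exception, Ckm, is also abundant in heart. A keyword in the records names extraocular muscle, while titles and marker levels are those of heart. On 4 arrays (mdx replicates 1 and 2 and control replicate 2 at 8 weeks, and mdx replicate 3 at 10.5 months) the brightest signals reached further than on the others, and correlations within a group were 0.948 to 0.982.

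**Figure D1:**
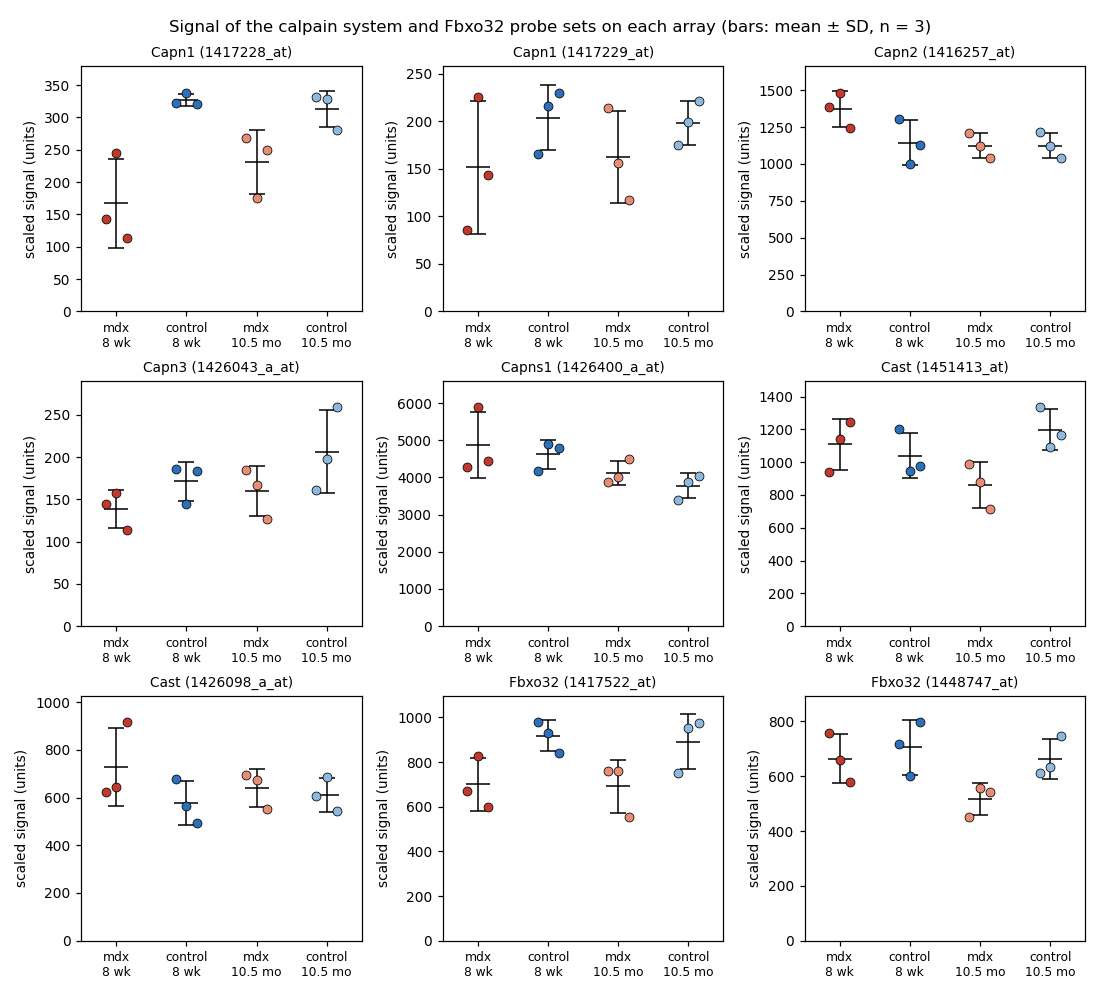
Scaled signal (vertical axes, from 0) of the 9 probe sets on each of the 12 arrays, with mdx left of control at 8 weeks and at 10.5 months. Points are arrays and bars give the mean ± SD of 3 arrays. The brighter Capn1 probe set lies at 113 to 245 in mdx hearts at 8 weeks, against 321 to 338 in control hearts.

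At 8 weeks the question was whether the calpain system and atrogin-1 differed in young mdx heart. Capn1 transcript was lower in mdx hearts, at about 0.533-fold of control, and it was the only 1 of the 6 measured members to pass the test. Capn2, Capns1 and Cast had small positive differences, and Capn3 and Fbxo32 had negative ones, none of which passed. A call was an adjusted p below 0.05 in limma, with Benjamini-Hochberg adjustment over 14932 tested probe sets, and by this rule 2.15% of 8852 genes were called at 8 weeks when each was represented by its brightest probe set. The median difference of the 6 members was -0.09, against -0.01 over all tested genes.

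The brighter probe set of Capn1 (1417228_at) gave 143, 245 and 113 in mdx hearts at 8 weeks, against 323, 338 and 321 in control hearts. The control arrays lay within a few percent of each other, while the mdx arrays were scattered, and all 3 were below all controls. The means were 167 ± 68.9 in mdx and 328 ± 9.4 in control hearts (SD, n = 3 each). The difference was -0.91 ± 0.22 (standard error, limma adjusted p = 0.0490), with a 95% interval of -1.38 to -0.44. This adjusted p lies at the threshold, and only 4 of 22 other settings kept the call (an offset of 64, a minimum mean signal of 200, the signal range as a term and leaving out mdx replicate 2).

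Leaving out mdx replicate 2, the mdx array nearest the controls, gave -1.17 with an adjusted p of 0.0101. Leaving out any other single array, including those at 10.5 months, gave adjusted p between 0.0581 and 0.131, with differences of -0.92 to -0.71. Fitted on the 8-week arrays alone, the adjusted p was 0.184. The direction was negative under every setting run.

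**Figure D2:**
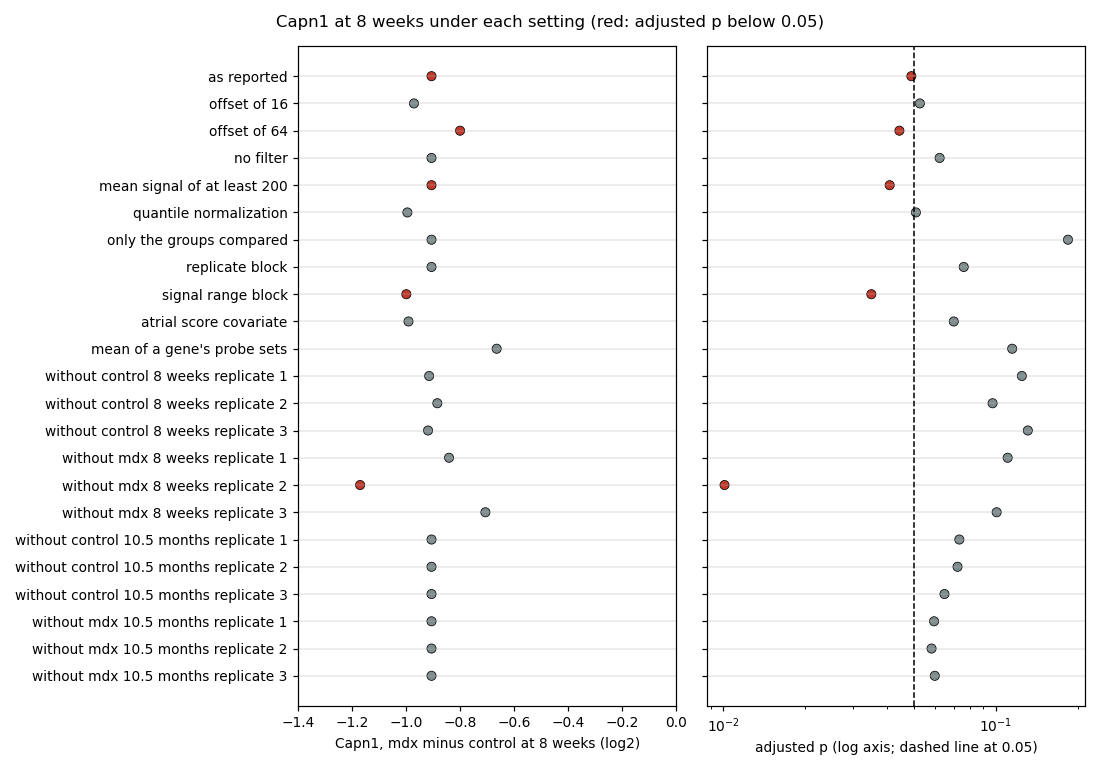
Difference of the brighter Capn1 probe set between mdx and control hearts at 8 weeks on the log2 scale (left) and its adjusted p on a log axis (right), as reported and under each of 22 other settings (rows). Red points have an adjusted p below 0.05 and the dashed line marks 0.05. Differences run from -1.17 to -0.67 and adjusted p from 0.0101 to 0.184.

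The dimmer probe set of Capn1 (1417229_at) gave 85.8, 225 and 144 in mdx hearts at 8 weeks, against 166, 216 and 230 in control hearts. Here mdx replicate 2 lay among the controls, and the difference of -0.42 ± 0.26 did not pass (adjusted p = 0.417). On both probe sets that array was the highest of the mdx group. Over the 12 arrays the probe sets correlated with r = 0.645, and the mean of both differed by -0.67 (adjusted p = 0.115).

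Some other measures moved with genotype at 8 weeks. The 8 atrial myocyte markers summed to between 13333 and 14256 in mdx hearts, against 5763 to 7872 in control hearts, with none of the 8 at 0 and none called singly. Nppa made up the largest part of this sum, with a mean of 9633 over the 12 arrays, against 974 for the next, Myl4. Nppa differed by 1.25 (limma adjusted p = 0.0548), and of the others only Stard10 was negative (-0.15). The 10 fibroblast markers, none at 0, summed to between 23124 and 25991 in mdx hearts and 17691 to 21447 in control hearts. Among smooth muscle and pericyte markers, 1 of 7 tested was called, Acta2, which encodes smooth muscle actin and fell in mdx hearts (-0.80, adjusted p = 0.0184). Of the others only Pdgfrb was negative (-0.19). Myh11 (0.42), Rgs5 (0.37), Des (0.34), Tagln (0.08) and Cspg4 (0.07) were positive, so the list as a whole did not fall. The 8 markers of that list, none at 0, summed to between 20031 and 30861 in mdx hearts and 22012 and 29106 in control hearts. With the atrial score as a covariate Capn1 differed by -0.99 (adjusted p = 0.0700), while a term for the 4 arrays of wide signal range gave an adjusted p of 0.0349. The part of the fibroblast and smooth muscle signals was not tested.

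Capn2 and the regulatory subunit passed in neither direction at 8 weeks. Capn2 gave 1389, 1483 and 1243 in mdx hearts at 8 weeks, against 1307, 999 and 1129 in control hearts. The groups overlapped, and the difference of 0.26 ± 0.15 did not pass (adjusted p = 0.386, 95% interval -0.06 to 0.58). Capns1 gave 4279, 5892 and 4452 in mdx hearts and 4172, 4909 and 4794 in control hearts. These ranges also overlapped (0.06 ± 0.16, adjusted p = 0.874, 95% interval -0.28 to 0.41), so a change of either sign up to these bounds could not be told from none.

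Calpastatin and calpain 3 gave overlapping ranges at 8 weeks. The brighter Cast probe set (1451413_at) gave 941, 1140 and 1246 in mdx hearts, against 1200, 945 and 977 in control hearts (0.09 ± 0.17, adjusted p = 0.828). The dimmer one (1426098_a_at) gave 623, 642 and 917 in mdx hearts, against 677, 563 and 494 in control hearts (0.31 ± 0.18, adjusted p = 0.408). Both leaned the same way, with mdx replicate 3 the highest array of its group on each. Capn3 was dim, with 144, 158 and 114 in mdx hearts and 186, 144 and 184 in control hearts (-0.25 ± 0.19, adjusted p = 0.519).

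Fbxo32, the atrogin-1 gene, passed on neither probe set in young mdx heart, and both differences were negative. The brighter one (1417522_at) gave 671, 829 and 600 in mdx hearts, against 980, 932 and 842 in control hearts. The groups did not overlap, with a difference of -0.39 ± 0.18 that did not pass over all probe sets (adjusted p = 0.273, unadjusted p = 0.0473). The dimmer one (1448747_at) gave 756, 658 and 579 in mdx hearts and 716, 601 and 798 in control hearts, ranges that overlapped (-0.08 ± 0.16, adjusted p = 0.834). Capn1 and Fbxo32 were thus 2 of 6 members with all mdx arrays below all controls, where 10.5% of tested genes showed that arrangement. At an unadjusted p below 0.05 there were also 2 of 6 members, against 17.7% of tested genes.

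**Figure D3:**
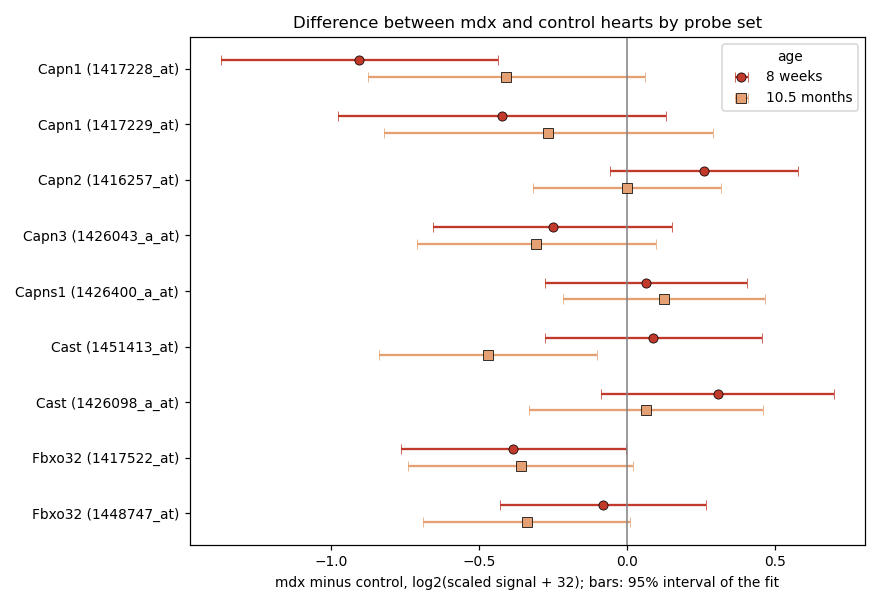
Difference between mdx and control hearts for the 9 probe sets at 8 weeks (circles) and 10.5 months (squares), on the scale log2(scaled signal + 32), with 95% intervals of the fit. At 8 weeks the brighter Capn1 probe set has the interval farthest from 0 (-1.38 to -0.44), and at 10.5 months the brighter Cast probe set does (-0.84 to -0.10).

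At 10.5 months the same question was asked of older hearts. None of the 6 members passed in limma, in a comparison that called 0.0678% of tested genes. Capn1 and the brighter Cast probe set had all mdx arrays below all control arrays, which made 2 of 6 members, against 10.8% of tested genes. Of the members, 1 of 6 (Cast) had an unadjusted p below 0.05, against 7.34% of tested genes. The median difference of the 6 members was -0.33, against -0.02 over all tested genes.

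Capn1 (1417228_at) gave 269, 175 and 250 in mdx hearts at 10.5 months, against 331, 328 and 281 in control hearts. The mdx arrays were again the lower ones, with a narrower gap than in the young hearts, and the difference was -0.41 ± 0.22 (adjusted p = 0.703). Its dimmer probe set overlapped, with 214, 157 and 118 in mdx hearts against 175, 199 and 221 in control hearts (-0.27 ± 0.26, adjusted p = 0.854). Capn1 was the only member with all mdx arrays below all controls at both ages, an arrangement found in 1.47% of tested genes. The difference at 10.5 months minus that at 8 weeks was 0.50 ± 0.31 (adjusted p = 0.548), so the ages were not shown to differ. Averaged over both ages, none of the 6 members passed, where 0.169% of tested genes did, and 2 of 6 (Capn1 and Fbxo32) had an unadjusted p below 0.05, against 13.3% of tested genes. Capn1 differed by -0.66 ± 0.15 (adjusted p = 0.102), or by -0.79 without mdx replicate 2 at 8 weeks (adjusted p = 0.0213). Without any other single array this adjusted p was 0.103 to 0.223.

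Calpastatin was the member with the lowest p-value in older hearts, and its probe sets did not give the same picture. The brighter one gave 991, 878 and 712 in mdx hearts, against 1335, 1094 and 1166 in control hearts. All mdx arrays lay below the controls, and the means were 861 ± 140 in mdx and 1198 ± 124 in control hearts (SD, n = 3 each). The difference was -0.47 ± 0.17 (unadjusted p = 0.0160, adjusted p = 0.631). The dimmer probe set gave 696, 675 and 551 in mdx hearts and 607, 684 and 542 in control hearts, which overlapped (0.06 ± 0.18, adjusted p = 0.957). The 2 probe sets correlated with r = 0.387 over the 12 arrays. The change between ages of the mdx difference on the brighter one was -0.56 ± 0.24 (unadjusted p = 0.0371, adjusted p = 0.382). Its mean over both ages was -0.19 ± 0.12 (adjusted p = 0.491).

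Fbxo32 had negative differences on both of its probe sets at 10.5 months, and neither passed. The brighter one gave 759, 761 and 553 in mdx hearts, against 750, 953 and 974 in control hearts, with control replicate 1 among the mdx values (-0.36 ± 0.18, adjusted p = 0.686). The dimmer one gave 451, 558 and 544 in mdx hearts, against 610, 634 and 746 in control hearts, with no overlap (-0.34 ± 0.16, adjusted p = 0.675). The brighter probe set averaged -0.37 ± 0.12 over both ages (unadjusted p = 0.0103, adjusted p = 0.227). The 95% interval of this probe set was -0.77 to -0.0054 at 8 weeks and -0.74 to 0.020 at 10.5 months.

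The remaining members differed little at 10.5 months. Capn2 gave 1207, 1122 and 1040 in mdx hearts and 1214, 1122 and 1039 in control hearts, which are nearly equal (0.00 ± 0.15, adjusted p = 0.998). Capns1 gave 3867, 4003 and 4486 in mdx hearts, against 3399, 3875 and 4051 in control hearts (0.13 ± 0.16, adjusted p = 0.888). Capn3 gave 184, 167 and 127 in mdx hearts, against 162, 198 and 259 in control hearts (-0.31 ± 0.19, adjusted p = 0.748). All 3 overlapped. At this age the atrial markers summed to 13092 to 19798 in mdx hearts and 6565 to 25171 in control hearts. Singly they went both ways, with none called. Nppa (0.76) and Pam (0.19) were positive. Myl7 (-2.08), Sln (-2.85), Myl4 (-1.65), Bmp10 (-0.61), Stard10 (-0.45) and Dkk3 (-0.88) were negative. The fibroblast markers summed to 24674 to 33759 in mdx hearts and 21338 to 22188 in control hearts. The smooth muscle and pericyte markers summed to 22106 to 24090 in mdx hearts and 19077 to 21142 in control hearts, without overlap and with none called. Rgs5, Des and Acta2 weighed most in this sum (means of 9007, 8546 and 4591 over the 12 arrays). Singly these markers were split. Acta2 (0.64), Des (0.25), Tagln (0.20) and Rgs5 (0.05) were positive, while Myh11 (-0.67), Cspg4 (-0.38) and Pdgfrb (-0.27) were negative. The part of the fibroblast and smooth muscle signals in these differences was not tested.

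Age was compared within each genotype, in comparisons that share arrays with those above. None of the 6 members passed in limma in mdx hearts, where 11.3% of tested genes were called, or in control hearts, where 0.158% were. None had an unadjusted p below 0.05 in either genotype, against 30.1% and 11.8% of tested genes. In mdx hearts Capn1 was at 231 ± 49.5 at 10.5 months and 167 ± 68.9 at 8 weeks (0.44 ± 0.22, adjusted p = 0.193). It passed without mdx replicate 2 at 8 weeks (0.70, adjusted p = 0.0388), but without no other single array (adjusted p of 0.146 to 0.473). Capn2 stood at 1123 ± 83.4 at 10.5 months and 1372 ± 121 at 8 weeks in mdx hearts (-0.28 ± 0.15, adjusted p = 0.217). In control hearts the differences of the 6 members with age lay between -0.29 for Capns1 and 0.22 for Capn3. The mdx difference was not shown to change with age for any of the 6, in a comparison that called 0.158% of tested genes.

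The order of the group levels of the brighter Capn1 probe set was mdx at 8 weeks, mdx at 10.5 months, control at 10.5 months and control at 8 weeks, from low to high, and the 2 control groups did not differ beyond their spread. The brighter Fbxo32 probe set had both mdx groups (691 ± 120 at 10.5 months and 700 ± 117 at 8 weeks) below both control groups (892 ± 124 at 10.5 months and 918 ± 70.3 at 8 weeks), with neighbours of the same genotype within their spread. The dimmer one did not keep this order, with mdx hearts at 518 ± 57.7 at 10.5 months and 664 ± 89.2 at 8 weeks, and control hearts at 663 ± 72.3 at 10.5 months and 705 ± 99.2 at 8 weeks. On it the mdx arrays of the 2 ages did not overlap. Nor did the mdx arrays on Capn2 or the control arrays on Capns1, each lower at 10.5 months. The share of all tested genes without overlap between ages was not counted. Across the 12 arrays, whose groups and scaling they share, log2 signals of Fbxo32 correlated with those of Capn3 (r = 0.768) and Capn1 (r = 0.663), while Capn1 and Capn2 had r = -0.360. The genes with the pattern most like that of Capn1 were Asb10, Xrcc1 and Pdlim4 (r = 0.896, 0.880 and 0.871). For Fbxo32 they were Nrd1, Mettl17 and Zfp638 (r = 0.910, 0.890 and 0.879), and for Cast they were Tbc1d24, Hsdl2 and Parp4 (r = 0.905, 0.890 and 0.881). Capn3 was closest to Ncapd2, Capn2 to Pkp4 and Capns1 to C130036L24Rik (r = 0.938, 0.876 and 0.910).

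The wider proteolytic pathway was followed in 5 lists of 104 genes in all, of which 78 were tested. At 8 weeks 1 rose and 1 fell in limma, which is 2 of 78 against 2.15% of all tested genes, and at 10.5 months none was called, against 0.0678%. Unadjusted p-values below 0.05 were reached by 9 of the 78 at 8 weeks, where 17.7% of all tested genes reached them, and by 8 at 10.5 months, where 7.34% did. The medians of the 78 were -0.04 at 8 weeks and -0.09 at 10.5 months, against -0.01 and -0.02 over all tested genes.

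Among genes upstream of the atrophy ligases, Klf15 fell in young mdx heart. It encodes a transcription factor that is induced by glucocorticoids and raises atrogin-1 and MuRF1 in rodent skeletal muscle. It gave 369, 309 and 445 in mdx hearts at 8 weeks, against 885, 666 and 642 in control hearts, with no overlap (-0.91 ± 0.20, adjusted p = 0.0383). Fitted on the 8-week arrays alone its adjusted p was 0.146, and 11 of 22 other settings kept the call. Leaving out single arrays kept it in 3 of 12 cases (mdx replicate 3 at 8 weeks, and mdx replicates 2 and 3 at 10.5 months), with adjusted p of 0.0503 to 0.127 in the others. At 10.5 months the Klf15 groups overlapped (-0.31 ± 0.20, adjusted p = 0.768). Control hearts stood at 731 ± 134 at 8 weeks and 450 ± 41.1 at 10.5 months, and mdx hearts at 374 ± 68.2 and 364 ± 89.5. The change of its mdx difference between ages did not pass (0.60 ± 0.28, adjusted p = 0.415). Cebpb, which encodes a bZIP factor that activates the atrogin-1 gene in cachectic mouse muscle, had the smallest p-value of the list at 10.5 months. It gave 556, 757 and 628 in mdx hearts there, against 1225, 1044 and 1179 in control hearts (-0.81 ± 0.20, unadjusted p = 0.00125, adjusted p = 0.365). At 8 weeks it gave 843, 941 and 1436 in mdx hearts, against 1510, 1869 and 1515 in control hearts (-0.62 ± 0.20, adjusted p = 0.125). All mdx arrays were below all controls at both ages, and its dimmer probe set passed at 8 weeks (-0.66 ± 0.14, adjusted p = 0.0373). Of the 20 tested genes in this list 14 were negative at each age, and the share over all tested genes was not counted. The medians of the list were -0.12 at 8 weeks and -0.09 at 10.5 months, against -0.01 and -0.02 over all tested genes.

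Among the other ubiquitin pathway genes, Usp14, which encodes a deubiquitinase of the proteasome, rose at 8 weeks on 1 of its 3 tested probe sets. The brightest gave 1947, 1640 and 1201 in mdx hearts, against 755, 1023 and 726 in control hearts (0.90 ± 0.19, adjusted p = 0.0340). The other two had differences of -0.37 and -0.06 (adjusted p = 0.477 and 0.875), and the mean of all 3 differed by 0.15 (adjusted p = 0.551). Leaving out single arrays kept the call of the brightest in 5 of 12 cases, with adjusted p of 0.0512 to 0.120 in the others. At 10.5 months the brightest gave -0.17 ± 0.19 (adjusted p = 0.875), with overlapping groups. Its mdx difference changed by -1.07 ± 0.27 between the ages (limma unadjusted p = 0.00150, adjusted p = 0.148), which did not pass. Fbxo21, an F-box gene induced in atrophying mouse muscle, came nearest at 10.5 months, with 652, 536 and 572 in mdx hearts against 785, 815 and 823 in control hearts (-0.44 ± 0.16, adjusted p = 0.635). Its groups did not overlap, and its dimmer probe set gave -0.48 ± 0.21 (adjusted p = 0.666). In this list 14 of 19 tested genes were negative at each age, and the share over all tested genes was not counted. The medians of the list were -0.08 at 8 weeks and -0.09 at 10.5 months, against -0.01 and -0.02 over all tested genes.

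The other calpain genes gave no call. Of 6 tested, Capn12 came nearest at 8 weeks, with 45.9, 135 and 39.2 in mdx hearts against 129, 116 and 128 in control hearts (-0.68 ± 0.25, adjusted p = 0.185). As for Capn1, mdx replicate 2 lay apart from the other mdx arrays, and without it the difference was -1.07 (adjusted p = 0.00795). Without any other single array the adjusted p of Capn12 was 0.206 to 0.386. Capn7 came nearest at 10.5 months (-0.14 ± 0.15, adjusted p = 0.874), and its 2 dimmer probe sets gave 0.01 and -0.32 (adjusted p = 0.988 and 0.804). At 8 weeks the first of these had all mdx arrays below all controls and a smaller p-value than Capn12 (-0.58 ± 0.17, adjusted p = 0.0893), while the brightest gave -0.07 (adjusted p = 0.837).

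Of 13 tested calpain substrates and titin partners of calpain 3, none passed by its brightest probe set. Ankrd1, which encodes a stress-responsive titin-binding protein of the sarcomere, came nearest at 8 weeks, with 23810, 23890 and 11629 in mdx hearts against 8520, 10835 and 11547 in control hearts (0.88 ± 0.25, adjusted p = 0.0848). The groups did not overlap, though mdx replicate 3 was close to the controls, and without that array the difference was 1.22 (adjusted p = 0.0115). Without any other single array the adjusted p was 0.104 to 0.232. The high arrays, mdx replicates 1 and 2, were both of wide signal range. Quantile normalization gave 0.58 (adjusted p = 0.104), and a term for wide signal range gave 0.75 (adjusted p = 0.110). The dimmer Ankrd1 probe set passed (0.93 ± 0.20, adjusted p = 0.0383), as did the mean of both (0.90, adjusted p = 0.0485). At 10.5 months the brightest stood at 18305 ± 1777 in mdx hearts and 12967 ± 1533 in control hearts (SD, n = 3 each). There the groups did not overlap either (0.50 ± 0.25, adjusted p = 0.689), and only mdx replicate 3 was of wide signal range. The dimmer one overlapped at that age (0.34 ± 0.20, adjusted p = 0.740). Tln1, the gene of the calpain substrate talin, came nearest at 10.5 months, with 639, 903 and 654 in mdx hearts against 1024, 983 and 1021 in control hearts (-0.46 ± 0.19, adjusted p = 0.666). Its other probe set went the other way (0.58 ± 0.23, adjusted p = 0.666).

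Autophagy and lysosomal genes were spread around 0 at both ages, with 11 of 20 positive at 8 weeks and 10 of 20 at 10.5 months. Atg7, which encodes the enzyme that activates ubiquitin-like autophagy proteins, came nearest at 8 weeks, with 175, 269 and 190 in mdx hearts against 331, 277 and 277 in control hearts (-0.44 ± 0.23, adjusted p = 0.343). Ulk1, the gene of the kinase that starts autophagy, came nearest at 10.5 months, with 990, 716 and 518 in mdx hearts against 953, 978 and 1157 in control hearts (-0.50 ± 0.20, adjusted p = 0.666). The Atg7 groups did not overlap and the Ulk1 groups did. The dimmer probe set of Atg7 gave -1.06 ± 0.29 at 8 weeks (adjusted p = 0.0747), and the mean of its 2 probe sets passed (-0.75, adjusted p = 0.0469). The dimmer probe set of Ulk1 gave -0.50 ± 0.34 at 10.5 months (adjusted p = 0.782).

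**Figure D4:**
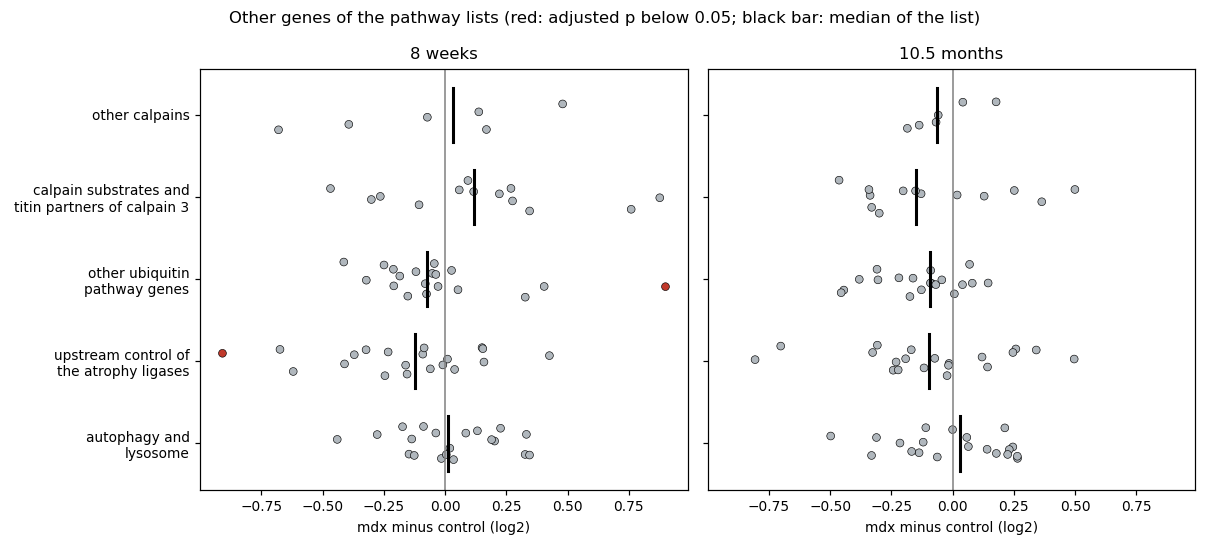
Difference between mdx and control hearts (horizontal axis, log2) of the 78 tested genes in the 5 pathway lists at 8 weeks (left) and 10.5 months (right). Each point is a gene by its brightest probe set, shifted vertically only to separate points, with the median of its list as a black bar. Red marks an adjusted p below 0.05, which only Usp14 (0.90) and Klf15 (-0.91) reached, both at 8 weeks.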

How the data were processed

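The deposited values are intensity on a linear scale, with 1 value for each probe set on each array. The values were already scaled when deposited, since the trimmed mean (2% off each end) was nearly equal on all arrays. The summarization software and any detection calls are not stated by the labels. Gene names came from GEO's platform annotation, in which 20393 probe sets had 1 gene, 691 had several and 1606 had none. Older symbols were updated through RefSeq (GRCm38.p6). Groups and replicate numbers came from the sample titles.

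A trimmed mean of 500 was set on every array. The 64 control probe sets and those with a mean below 100 were left out. Group means were fitted to log2(signal + 32) over all 12 arrays with limma 3.58.1 in R 4.3.3 (residual degrees of freedom 8, prior 5.2). The code was tested on simulated data. The members and lists were chosen with earlier results of these data known. Named pathway genes are those called in a list, or otherwise the gene with the smallest p-value at that age. The 3 genes most correlated with each member were sought among tested genes. Other offsets, filters, normalization, blocks, covariates, subsets of arrays and averages over probe sets were tried.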

Additional observations from a re-analysis of the deposited data

Results flagged for a closer look

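Ube4b and Trim32, ubiquitin ligase genes of the pathway lists, had all mdx arrays above all control arrays at 8 weeks and all below them at 10.5 months. Ube4b gave 683, 701 and 622 in mdx hearts against 537, 541 and 500 in control hearts at 8 weeks. In the older hearts the values were 504, 409 and 388 for mdx against 613, 573 and 531 for control. Its mdx difference changed by -0.71 ± 0.20 between the ages (limma unadjusted p = 0.00341, adjusted p = 0.185). Trim32 gave 422, 386 and 703 in mdx hearts against 371, 327 and 384 in control hearts at 8 weeks, and 286, 234 and 233 in mdx hearts against 328, 387 and 350 in control hearts at 10.5 months. Its difference changed by -0.86 ± 0.28 (unadjusted p = 0.00837, adjusted p = 0.235). Neither change passed over all probe sets, and the genes were picked for this pattern after their values were seen. The share of all tested genes with such a reversal was not counted.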

How the results depend on the processing

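The count of 1 member called at 8 weeks became 0 with an offset of 16, no filter, quantile normalization, only the groups compared, the replicate block, the atrial score covariate and averaging over probe sets. It was 0 to 1 when single arrays were left out. The counts for the mean over ages and for age in mdx hearts, both 0, were 0 to 1 without single arrays, and the other member counts stayed at 0. The 2 pathway genes called at 8 weeks became 0 with only the groups compared, 1 with the replicate block, 0 with the atrial score covariate and 4 when probe sets were averaged, and were 0 to 5 without single arrays. Over all probe sets, the 343 calls at 8 weeks were 176 with the replicate block, 23 with only the groups compared, 120 with the atrial score covariate, 193 genes when probe sets were averaged and 42 to 308 without single arrays. The 7 at 10.5 months were 3 with the replicate block, 4 when probe sets were averaged and 1 to 12 without single arrays. With 3 arrays a group, the number of arrays limits what could be called. Same-numbered arrays of the genotypes had deviations correlated at -0.13 to 0.13, and not every array correlated best with its own number. Whether the numbers pair the samples is not stated by the labels, and so few correlations cannot decide it.

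Differences that passed no test turned sign as follows. Quantile normalization gave Capn2 at 10.5 months 0.027, Capns1 at 8 weeks -0.0077 and the age change of Capn3 0.093. The signal range block gave 0.024 for Capn2 at 10.5 months and 0.033 for Capn1 with age in controls. The atrial score covariate gave 0.075 for Capn2 at 10.5 months and, for the age change of the mdx difference, -0.0063 for Capns1 and -0.14 for Fbxo32, with 0.049 for Fbxo32 with age in controls. The mean of probe sets gave -0.12 for the age change of Fbxo32 and 0.059 for Tln1 at 10.5 months. Without single arrays the ranges spanning 0 were -0.056 to 0.053 for Capn2 and -0.015 to 0.16 for the dimmer Cast probe set at 10.5 months. At 8 weeks they were -0.079 to 0.15 for Capns1 and -0.19 to 0.0097 for the dimmer Fbxo32 probe set. For the age change of the mdx difference they were -0.19 to 0.099 for Capn3, -0.024 to 0.21 for Capns1 and -0.090 to 0.17 for Fbxo32. With age in controls they were -0.098 to 0.0086 for Capn1, -0.11 to 0.077 for Capn2 and -0.11 to 0.070 for Fbxo32, and with age in mdx hearts -0.12 to 0.13 for Fbxo32. The cause was not tested.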
